A study of Mus musculus with 25 samples.

Results

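Cholesterol is built from acetyl-CoA by a chain of enzymes of the cytosol and the endoplasmic reticulum. SREBP2, the transcription factor encoded by Srebf2, switches on the genes of that chain when sterols in the cell are low. With sterols present, INSIG proteins hold the SREBP escort SCAP in the endoplasmic reticulum, so that SREBP2 is not cut and released to the nucleus. In atherosclerotic arteries the same pathway is known from sterol-loaded macrophages, in which it is held back while sterol efflux genes under the receptor LXR are raised. The genes described here are 8 of the 23284 gene symbols of the table, chosen by symbol: the synthesis enzymes Hmgcs1, Idi1, Fdps, Fdft1, Sqle and Cyp51, the SREBP regulator Insig1, and Srebf2. All 8 passed the filter on low values and are among the 12797 genes tested.

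RNA came from whole aortas of male C57BL/6J mice put on their diet at 8 weeks of age. EKO mice lack Apoe and DKO mice lack both Apoe and Apoa1, so every group carries the Apoe deletion and no group has both genes intact. Each genotype was fed a normal laboratory diet (NLD, a standard chow) or a Western-type diet (WD) for 6 or 22 weeks. The DKO group on NLD for 6 weeks has 4 libraries and each of the other 7 groups has 3, 25 in all. The labels do not say whether libraries come from separate animals, so p-values measure the spread between these libraries. Values are FPKM, fragment counts scaled for the length of each transcript and for the mapped total of the library. The depth behind them is unknown, because read counts could not be recovered, so the precision that depth gives to a value cannot be stated.

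One library is incomplete. Replicate 2 of EKO on WD for 22 weeks, called the partial library, has a total of 152809 FPKM, and its zeros were taken as missing. It holds values for Hmgcs1, Idi1, Fdft1 and Sqle, whereas for Fdps, Cyp51, Insig1 and Srebf2 the group rests on its 2 other libraries. The other 5 EKO libraries of 22 weeks total 448239 to 556933 FPKM and the remaining 19 libraries total 360421 to 415555 FPKM. The deleted genes could not check the genotype labels: Apoa1 was at 0 to 1.97 FPKM in both genotypes, and Apoe was at 2.97 to 20.7 FPKM in the 24 full libraries. All 5 smooth muscle markers were present in every full library, with a summed level of 893 to 10749 FPKM. The EKO libraries carry a label that they are a new analysis of earlier samples and the DKO libraries do not, so such a difference and genotype cannot be told apart. In RNA from a whole tissue, fewer cells of a type and less RNA per cell cannot be told apart either.

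Promoters of 5 of the 8 genes (Hmgcs1, Idi1, Cyp51, Insig1 and Srebf2) matched the RefSeq table of GRCm38.p6, with windows from 250 bases before to 50 bases after the gene start. The patterns CACNCCAC (the core of the sterol regulatory element), CCAAT (bound by NF-Y) and GGGCGG (bound by Sp1) were searched on both strands. CACNCCAC was found in 6.24% of 32851 promoters of the same length and in 2 of the 5, Hmgcs1 at 136 bases before the start and Insig1 at 9 bases before it on the opposite strand. CCAAT was found in 37.4% of all promoters and GGGCGG in 35.7%, and each was found in all 5 members. No match in a member overlapped another. These matches are descriptions of letters, not sites. Of all pairs of members, Hmgcs1 and Insig1 had the highest Pearson's r over the full libraries, though not the highest Spearman's rho or r within groups. The r of Srebf2, the regulator, with these genes was -0.12 and -0.16. Shown 5′ to 3′ with the matches in capitals are the windows with the sterol pattern, Hmgcs1 (chr13:119690101-119690400, plus strand) and Insig1 (chr5:28071162-28071461, plus strand), and that of Srebf2 (chr15:82147019-82147318, plus strand):
Hmgcs1: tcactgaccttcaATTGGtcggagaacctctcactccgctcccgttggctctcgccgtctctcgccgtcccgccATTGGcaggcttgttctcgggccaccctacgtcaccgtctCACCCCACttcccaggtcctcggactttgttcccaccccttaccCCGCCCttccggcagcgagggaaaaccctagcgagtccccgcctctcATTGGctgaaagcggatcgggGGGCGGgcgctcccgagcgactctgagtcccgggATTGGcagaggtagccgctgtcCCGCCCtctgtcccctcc
Insig1: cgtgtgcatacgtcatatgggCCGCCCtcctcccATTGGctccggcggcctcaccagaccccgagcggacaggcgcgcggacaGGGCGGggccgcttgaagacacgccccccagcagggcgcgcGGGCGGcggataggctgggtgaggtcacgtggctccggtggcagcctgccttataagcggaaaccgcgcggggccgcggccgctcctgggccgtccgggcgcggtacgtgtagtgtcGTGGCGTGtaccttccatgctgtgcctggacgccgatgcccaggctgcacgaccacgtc
Srebf2: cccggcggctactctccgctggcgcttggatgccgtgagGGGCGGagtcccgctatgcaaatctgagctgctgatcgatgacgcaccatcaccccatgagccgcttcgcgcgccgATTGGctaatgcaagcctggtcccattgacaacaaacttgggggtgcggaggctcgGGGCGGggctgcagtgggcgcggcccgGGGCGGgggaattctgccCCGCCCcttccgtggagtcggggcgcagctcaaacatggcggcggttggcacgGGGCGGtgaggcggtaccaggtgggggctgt

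Taken per transcript length, Insig1 was the member with the highest median level over the libraries, 62.3 FPKM (18.0 to 125, 24 libraries), and Hmgcs1 followed with 42.1 FPKM (23.4 to 81.9, 25 libraries). Fdps had a median of 21.7 FPKM (11.4 to 40.3, 24 libraries), Srebf2 15.7 FPKM (9.74 to 23.8, 24 libraries) and Fdft1 13.4 FPKM (6.18 to 44.9, 25 libraries). Idi1 had 9.51 FPKM (4.62 to 16.1, 25 libraries), Sqle 5.94 FPKM (2.01 to 20.6, 25 libraries) and Cyp51 5.22 FPKM (2.60 to 8.87, 24 libraries). The ranges of neighbours in this order overlap. Between libraries of one group the members other than Srebf2 varied widely. On log2(FPKM + 1) their residual SD was between 0.38 for Cyp51 and 0.65 for Insig1, against a median of 0.21 over all tested genes. For Srebf2 it was 0.18, below that median. Group membership took up 73.2% of the variance of Srebf2 and 72.8% of that of Fdft1. It took up 45.0% for Fdps, 41.1% for Insig1, 34.1% for Hmgcs1, 31.1% for Cyp51, 28.5% for Idi1 and 27.9% for Sqle, against a median of 55.1% over all tested genes.

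**Figure D1:**
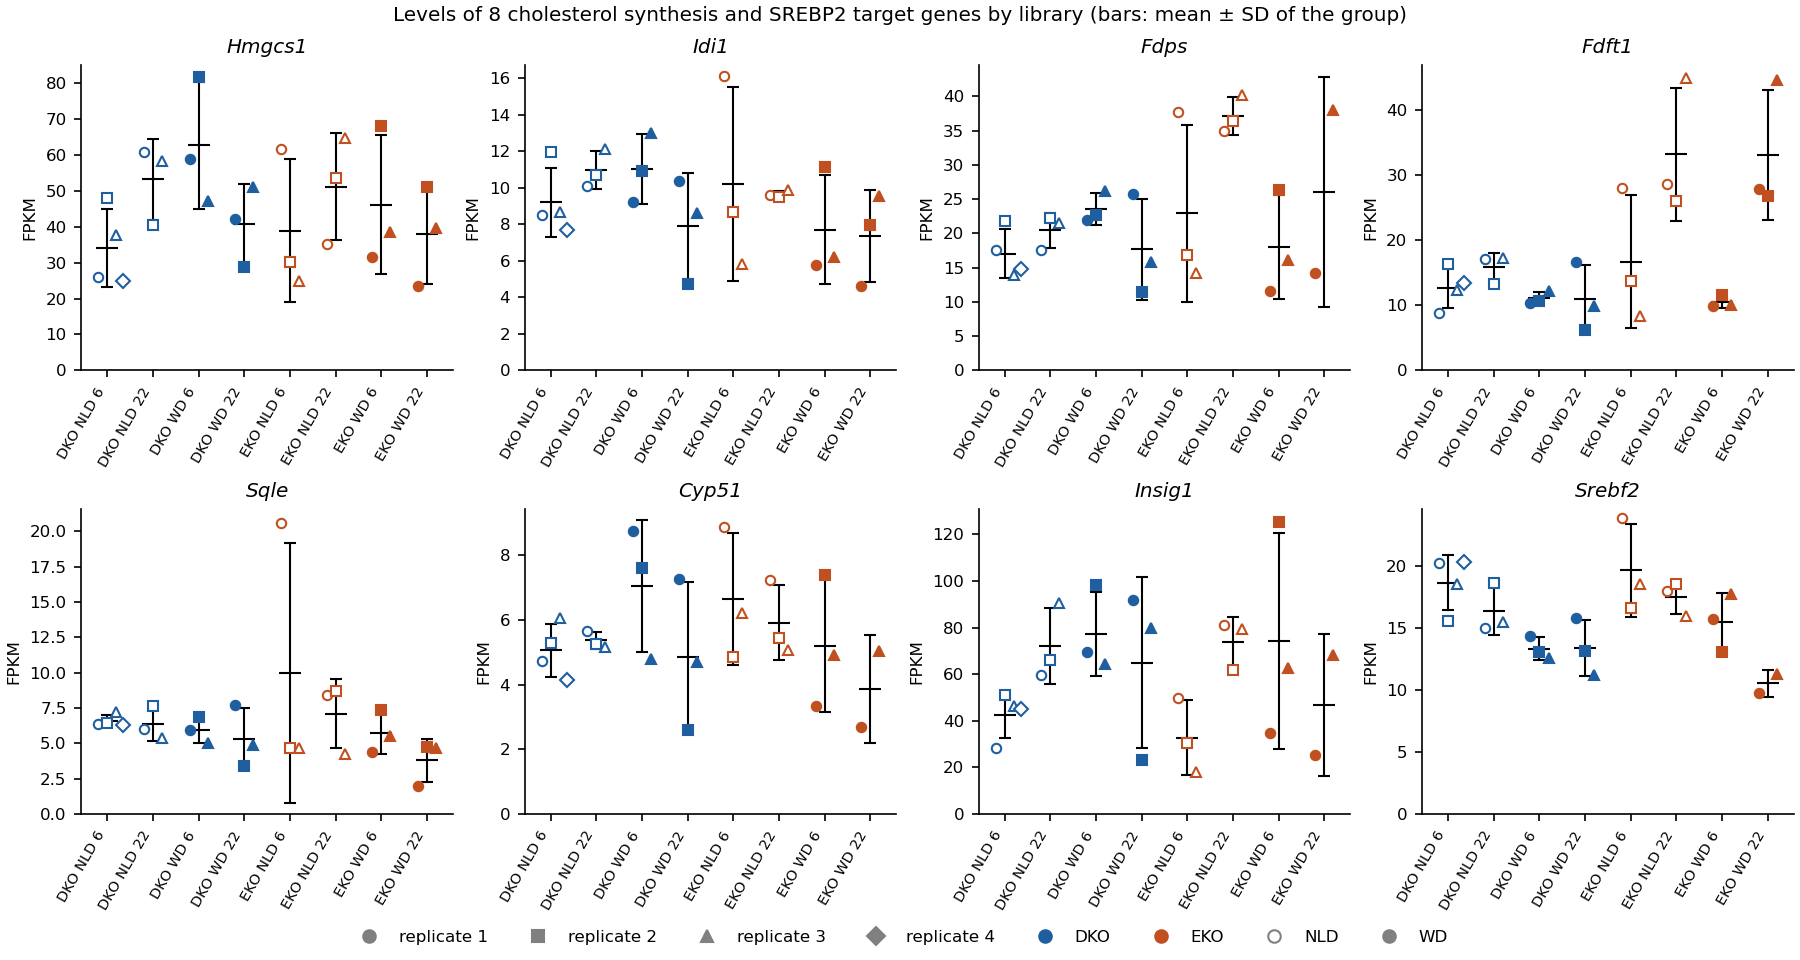
Level in FPKM (vertical axes, linear) of the 8 genes in each library, by group on the horizontal axis; points are libraries, bars the mean ± SD, open symbols NLD, filled symbols WD, blue DKO and orange EKO. Fdft1 stands at 25.9 to 44.9 FPKM in all 6 EKO libraries of 22 weeks, and the single high Sqle library is EKO on NLD for 6 weeks at 20.6 FPKM.

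Differences are given on log2(FPKM + 1), which understates the change of genes of low level, with the standard error (SE) of the linear model. P-values are those of limma, adjusted by the Benjamini-Hochberg method over the 12797 genes of each comparison, and a gene is called when the adjusted p is under 0.05. In the 12 comparisons of genotype, diet and time, 5 calls fell on members, 3 for Fdft1 and 2 for Srebf2. In the comparisons of the Fdft1 calls, 18.6%, 25.5% and 14.8% of all tested genes were called higher. In those of the Srebf2 calls, 9.17% and 4.45% were called lower. In the 6 tests of differences between comparisons, 1 further call fell on Fdft1, where 7.74% of all tested genes were called higher. Hmgcs1, Idi1, Fdps, Sqle, Cyp51 and Insig1 were called in none of the 18.

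**Figure D2:**
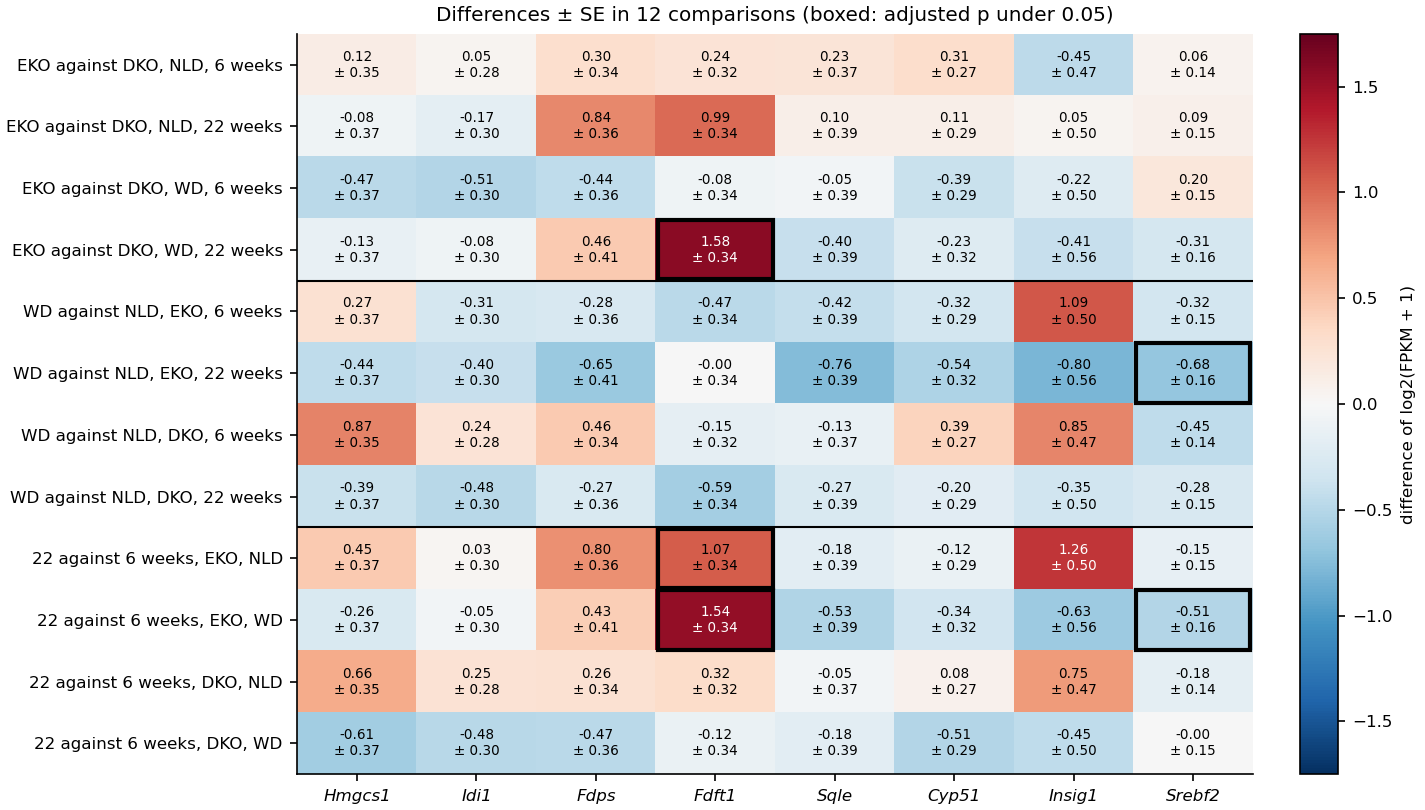
Difference on the log2(FPKM + 1) scale (colour, with each value and its SE printed) of the 8 genes (horizontal axis) in the 12 comparisons (vertical axis). Boxes mark adjusted p under 0.05. The boxes are the 3 of Fdft1 (1.58, 1.07 and 1.54) and the 2 of Srebf2 (-0.68 and -0.51).

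Hmgcs1 encodes HMG-CoA synthase, an early enzyme of the mevalonate pathway. On NLD for 6 weeks its levels were 25.9, 47.9, 37.8 and 24.97 FPKM in DKO and 61.9, 30.2 and 24.9 FPKM in EKO. On NLD for 22 weeks they were 61.0, 40.4 and 58.5 FPKM in DKO and 35.2, 53.6 and 64.8 FPKM in EKO. The genotypes overlap at both times. On WD for 6 weeks Hmgcs1 was at 59.0, 81.9 and 47.2 FPKM in DKO and 31.7, 68.2 and 38.6 FPKM in EKO, and for 22 weeks at 42.1, 28.9 and 51.2 FPKM in DKO and 23.4, 51.0 and 39.8 FPKM in EKO. Its largest difference was WD against NLD in DKO at 6 weeks, 0.87 (SE 0.35), with an unadjusted p of 0.021 and an adjusted p of 0.1289 in limma. The DKO groups of that comparison overlap in 1 library each, 47.2 FPKM on WD and 47.9 FPKM on NLD. At 22 weeks the DKO difference was -0.39 (SE 0.37), and the difference between the times, -1.27 (SE 0.51), had an adjusted p of 0.8452.

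Idi1 encodes isopentenyl-diphosphate isomerase, which balances the isoprene units from which farnesyl diphosphate is assembled. Its group means lay close together, from 7.37 ± 2.51 FPKM (SD, n = 3) in EKO on WD for 22 weeks to 11.03 ± 1.90 FPKM (SD, n = 3) in DKO on WD for 6 weeks. The highest library was EKO replicate 1 on NLD for 6 weeks with 16.1 FPKM, beside 8.69 and 5.82 FPKM in the same group. In EKO on NLD for 22 weeks Idi1 was at 9.59, 9.51 and 9.87 FPKM, below all 3 DKO libraries of that diet and time at 10.1, 10.7 and 12.1 FPKM. The difference there was -0.17 (SE 0.30, adjusted p = 0.7947 in limma), and 9.73% of all tested genes had every EKO library below every DKO library in that comparison. The largest difference of Idi1 between genotypes, -0.51 (SE 0.30) on WD for 6 weeks, had an adjusted p of 0.7319.

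Fdps encodes farnesyl diphosphate synthase, at the branch point between sterols and other isoprenoids. In EKO on NLD for 22 weeks it was at 34.9, 36.3 and 40.3 FPKM and in DKO at 17.5, 22.2 and 21.6 FPKM, with no overlap. The difference of 0.84 (SE 0.36) had an unadjusted p of 0.033 and an adjusted p of 0.1739 in limma. Every EKO library was above every DKO library for 20.7% of all tested genes. In EKO on NLD for 6 weeks Fdps was at 37.8, 16.9 and 14.2 FPKM, so that replicate 1 reached the level of 22 weeks and the others did not. The difference of 22 against 6 weeks in EKO on NLD was 0.80 (SE 0.36, adjusted p = 0.09098 in limma), and it was 1.21 with an adjusted p of 0.01497 without that replicate 1. On WD the spread was wider, with 11.5, 26.4 and 16.0 FPKM in EKO at 6 weeks, 14.2 and 38.0 FPKM in EKO at 22 weeks, 21.9, 22.6 and 26.2 FPKM in DKO at 6 weeks and 25.7, 11.4 and 15.9 FPKM in DKO at 22 weeks. In DKO on NLD for 6 weeks Fdps was at 17.5, 21.8, 14.0 and 14.8 FPKM, all below DKO on WD at that time, a difference of 0.46 (SE 0.34, adjusted p = 0.3893). In the annotation 26.2% of the 50 nt stretches of Fdps transcripts also occur in transcripts of other genes, so its level may hold reads of copies.

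Fdft1 encodes squalene synthase, the first enzyme committed to sterols, and sits on the minus strand of chromosome 14, positions 63145150 to 63179578 of mm10 (ENSMUSG00000021273.10). At 22 weeks it was at 28.6, 25.9 and 44.9 FPKM in EKO on NLD and at 27.9, 26.8 and 44.6 FPKM in EKO on WD. The DKO libraries of 22 weeks held 17.0, 13.3 and 17.2 FPKM on NLD and 16.6, 6.18 and 9.79 FPKM on WD, so the genotypes do not overlap at 22 weeks on either diet. At 6 weeks Fdft1 was at 28.0, 13.7 and 8.32 FPKM in EKO on NLD and at 9.79, 11.6 and 10.02 FPKM in EKO on WD. DKO libraries of 6 weeks held 8.78, 16.3, 12.3 and 13.4 FPKM on NLD and 10.4, 10.7 and 12.2 FPKM on WD, within the range of EKO on NLD. The highest EKO library of 6 weeks on NLD was again replicate 1.

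On WD for 22 weeks Fdft1 had a mean of 33.1 FPKM (range 26.8 to 44.6, n = 3) in EKO and of 10.9 FPKM (range 6.18 to 16.6, n = 3) in DKO. It was higher in EKO by 1.58 (SE 0.34, adjusted p = 0.002029 in limma), and by 1.71 (adjusted p = 0.003358) without the partial library. In this comparison 18.6% of all tested genes were called higher, and every EKO library was above every DKO library for 29.8%. On NLD for 22 weeks the difference was 0.99 (SE 0.34) with an adjusted p of 0.08506, against 7.86% of genes called in either direction. It passed, at 0.99 with an adjusted p of 0.03736, when EKO replicate 1 on NLD for 6 weeks was left out of the fit, a library that enters through the shared estimate of the spread.

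With time in EKO, Fdft1 rose on WD from a mean of 10.5 FPKM (range 9.79 to 11.6, n = 3) to one of 33.1 FPKM, by 1.54 (SE 0.34, adjusted p = 0.002628 in limma). Every library of 22 weeks was above every library of 6 weeks, as for 25.7% of all tested genes, and 14.8% were called higher. Without the partial library the rise was 1.67 (adjusted p = 0.004286). On NLD Fdft1 in EKO rose by 1.07 (SE 0.34, adjusted p = 0.02063), where 25.5% of all tested genes were called higher and the groups overlap through replicate 1 at 6 weeks. That call was lost without EKO replicate 2 or replicate 3 on NLD for 6 weeks or replicate 3 on NLD for 22 weeks, with log2 differences of 0.68 to 1.502 over all 25 fits that leave out 1 library. In DKO the time differences were 0.32 (SE 0.32) on NLD and -0.12 (SE 0.34) on WD, neither called. The difference between genotypes in the change with time on WD was 1.66 (SE 0.48, adjusted p = 0.03489), against 7.74% of genes called higher in that test. This call was lost with the replicate number as a block (adjusted p = 0.0577 in limma), with the zeros of the partial library kept (adjusted p = 0.1665), and in 9 of the 25 fits that leave out 1 library (adjusted p up to 0.11), among them those without any single library of EKO or DKO on WD for 6 weeks. On NLD that difference was 0.74 (SE 0.47, adjusted p = 0.4419), against 3.88% of genes called in either direction. Both WD calls at 22 weeks share the EKO libraries of WD for 22 weeks.

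The last exon of Fdft1 overlaps the neighbouring gene Ctsb, which encodes a lysosomal protease, on the opposite strand over 774 bases (63145150 to 63145923 of chromosome 14). Of the 4224 stretches of 50 nt in Fdft1 transcripts, 17.2% also occur in transcripts of Ctsb and 9.38% in those of the gene model Gm6781. Whether the reads keep the strand is not stated, so reads of that stretch cannot be told apart. Ctsb was at 1228, 1062 and 1645 FPKM in EKO on WD for 22 weeks, at 426, 326 and 470 FPKM in EKO on NLD for 22 weeks and at 182 to 383 FPKM in the 19 other libraries. The 2 EKO groups of 22 weeks thus had mean Fdft1 levels of 33.2 and 33.1 FPKM beside mean Ctsb levels of 407 and 1312 FPKM. The 6 macrophage markers summed to 1180 and 1280 FPKM in the 2 full libraries of EKO on WD for 22 weeks and to 43.8 to 266 FPKM in the other 22, with none at 0 in any full library. Against DKO 5 of 6 were called higher, beside 18.6% of all tested genes. For EKO on NLD at 22 weeks the macrophage sum was 145 to 249 FPKM beside the same Fdft1 level. Ppia, the reference gene of the study's qPCR, stood at 1030 to 1348 FPKM in the EKO libraries of 22 weeks. In the 19 other libraries it was at 450 to 842 FPKM. Those EKO libraries, the partial one apart, also have the highest total FPKM. The parts of Ctsb, of macrophages and of such a shift between libraries in the Fdft1 result were not tested.

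**Figure D3:**
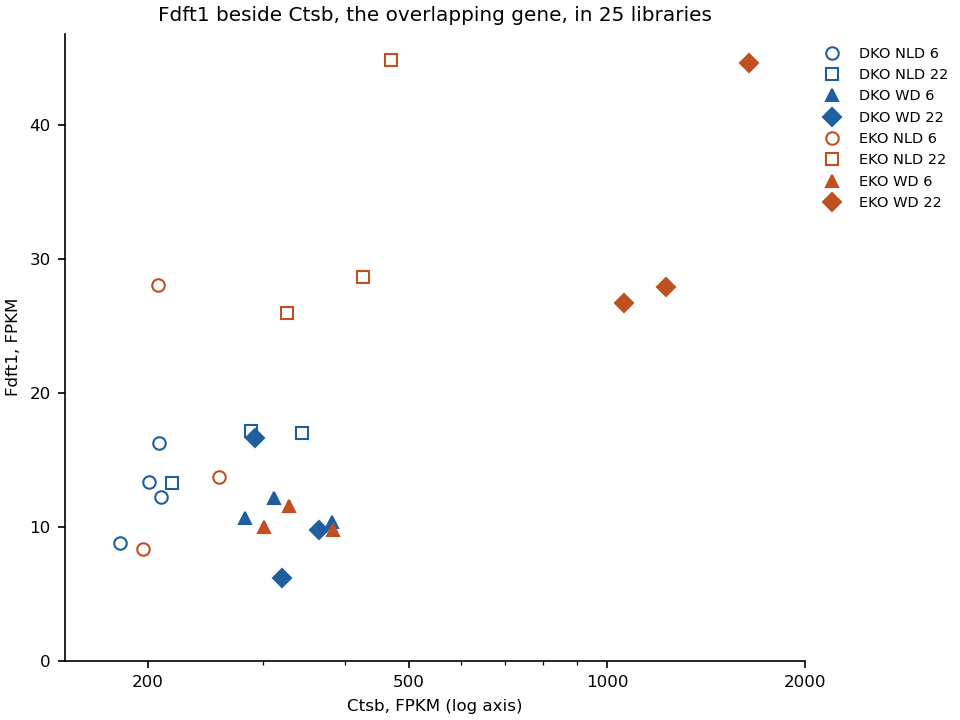
Level of Fdft1 (vertical axis, FPKM, linear) against that of Ctsb (horizontal axis, FPKM, log scale) in the 25 libraries, coloured by genotype and filled by diet. The 3 libraries of EKO on WD for 22 weeks stand apart in Ctsb at 1062 to 1645 FPKM, while in Fdft1 they share their range with EKO on NLD for 22 weeks.

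Sqle encodes squalene epoxidase, an oxygen-dependent step regarded as rate-limiting. EKO replicate 1 on NLD for 6 weeks was at 20.6 FPKM and its group mates at 4.69 and 4.67 FPKM, and the next highest of all 25 libraries was at 8.68 FPKM. Outside that library Sqle ranged from 2.01 FPKM, in EKO replicate 1 on WD for 22 weeks, to 8.68 FPKM, in EKO replicate 2 on NLD for 22 weeks. In DKO it was at 6.401, 6.43, 7.20 and 6.27 FPKM on NLD for 6 weeks and at 6.04, 7.68 and 5.37 FPKM on NLD for 22 weeks. DKO on WD held 5.94, 6.87 and 4.997 FPKM at 6 weeks and 7.69, 3.37 and 4.88 FPKM at 22 weeks. The largest difference of Sqle was WD against NLD in EKO at 22 weeks, with 2.01, 4.73 and 4.66 FPKM on WD and 8.41, 8.68 and 4.26 FPKM on NLD, -0.76 (SE 0.39, adjusted p = 0.1714 in limma). The groups overlap through the NLD library at 4.26 FPKM.

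Cyp51 encodes the cytochrome P450 that removes a methyl group from lanosterol. It was at 7.25, 5.46 and 5.06 FPKM in EKO on NLD for 22 weeks and at 2.70 and 5.05 FPKM on WD, a difference of -0.54 (SE 0.32, adjusted p = 0.2513 in limma). Every WD library was below every NLD library, by 5.05 against 5.06 FPKM at the nearest, as for 26.2% of all tested genes. In EKO at 6 weeks Cyp51 was at 8.87, 4.84 and 6.23 FPKM on NLD and at 3.33, 7.40 and 4.91 FPKM on WD. DKO held 4.16 to 6.07 FPKM on NLD at both times, 8.76, 7.61 and 4.81 FPKM on WD for 6 weeks and 7.26, 2.60 and 4.70 FPKM on WD for 22 weeks. The DKO groups overlap in each comparison of diet and time. Its transcripts share 2.63% of their 50 nt stretches with Akap9, which overlaps its end by 166 bases on the opposite strand.

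Insig1 encodes the endoplasmic reticulum protein that retains SCAP and SREBP, and is itself a target of SREBP2. It had the largest differences of the 8 genes without a call. In EKO on NLD it was at 49.8, 30.4 and 18.0 FPKM at 6 weeks and at 81.1, 61.7 and 79.3 FPKM at 22 weeks, with no overlap. The difference of 1.26 (SE 0.50) had an unadjusted p of 0.021 and an adjusted p of 0.05594 in limma, and every library of 22 weeks was above every library of 6 weeks for 33.1% of all tested genes. Without EKO replicate 1 on NLD for 6 weeks it was 1.61 (adjusted p = 0.02957). In DKO on NLD Insig1 was at 28.4, 51.0, 46.2 and 45.0 FPKM at 6 weeks and at 59.5, 65.9 and 90.7 FPKM at 22 weeks, again with no overlap, as for 6.78% of all tested genes, and the difference of 0.75 (SE 0.47) had an adjusted p of 0.6846.

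On WD for 6 weeks Insig1 was at 69.5, 98.1 and 64.5 FPKM in DKO, above all 4 DKO libraries of NLD, by 0.85 (SE 0.47, adjusted p = 0.2547 in limma). In EKO at that time it was at 34.9, 125 and 62.8 FPKM, 1.09 above NLD (SE 0.50, unadjusted p = 0.043, adjusted p = 0.2157), with overlap. At 22 weeks the WD libraries held 92.0, 23.0 and 79.7 FPKM in DKO and 25.3 and 68.2 FPKM in EKO, and the differences from NLD were -0.35 (SE 0.50) and -0.80 (SE 0.56). The diet difference in EKO at 22 weeks less that at 6 weeks was -1.89 (SE 0.75, adjusted p = 0.0767), which did not pass. Without EKO replicate 1 on NLD for 6 weeks that value was -2.24 (adjusted p = 0.04396).

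Brown adipocyte markers moved with Insig1. The 5 markers (Ucp1, Cidea, Elovl3, Cox7a1 and Dio2), of which none was at 0 in a full library, summed to 797 to 1235 FPKM in EKO on NLD for 6 weeks and to 2695 to 5194 FPKM at 22 weeks. Of the 5, 3 were called higher, beside 25.5% of all tested genes. In DKO on NLD the sum was 1006 to 2582 FPKM at 6 weeks and 2326 to 4139 FPKM at 22 weeks, and on WD for 6 weeks 3156 to 5292 FPKM. None of the 5 was called in the time or the diet comparison, beside 0.0547% and 5.17% of all tested genes. Over the 24 full libraries the level of Insig1 followed that sum with Pearson's r = 0.88 and Spearman's rho = 0.87, both with a permutation p of 1e-05, the smallest that the permutations can give, and adjusted p of 8e-05 and 0.00016 over 16 relations. Leaving out the 2 libraries farthest from the median of the sum gave r = 0.83, and within groups r was 0.82. The permutations ignored the groups, and r within groups had no test. Hmgcs1 followed the same sum with r = 0.79 and rho = 0.75 (permutation p of 1e-05 and 4e-05, adjusted 8e-05 and 0.00032), r = 0.72 without the 2 farthest libraries and r = 0.80 within groups. The part of brown adipocytes in these levels was not tested.

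**Figure D4:**
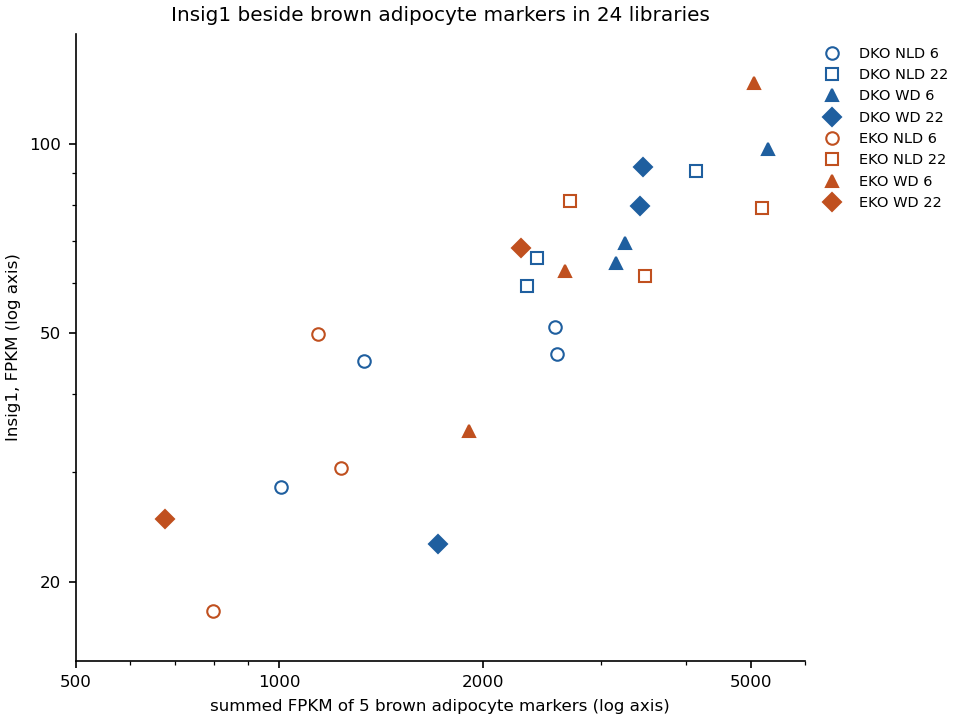
Level of Insig1 (vertical axis, FPKM, log scale) against the summed level of 5 brown adipocyte markers (horizontal axis, FPKM, log scale) in the 24 full libraries, coloured by genotype and filled by diet. The libraries rise together (r = 0.88), from EKO on NLD for 6 weeks and EKO replicate 1 on WD for 22 weeks at the lower left.

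Srebf2 itself, found on chromosome 15 at positions 82147181 to 82205379 of mm10 (ENSMUSG00000022463.8) and hosts the microRNA gene Mir33, had a negative WD against NLD difference in all 4 diet comparisons and passed the test in 1. In EKO for 22 weeks it was at 18.0, 18.5 and 15.9 FPKM on NLD and at 9.74 and 11.3 FPKM on WD. The WD libraries were both below all NLD libraries, and Srebf2 fell by 0.68 (SE 0.16, adjusted p = 0.006956 in limma), where 9.17% of all tested genes were called lower. The call held in 24 of the 25 fits that leave out 1 library, with differences of -0.78 to -0.59, and was lost without EKO replicate 1 on WD for 22 weeks, where 1 WD library remains (adjusted p = 0.1063). With the zeros of the partial library kept as deposited the difference was -1.86 and its adjusted p 0.05553.

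In DKO at 6 weeks Srebf2 was at 20.2, 15.5, 18.5 and 20.3 FPKM on NLD and at 14.3, 13.0 and 12.6 FPKM on WD. These groups do not overlap, as for 16.6% of all tested genes in that direction. The difference of -0.45 (SE 0.14) had an unadjusted p of 0.0038 and an adjusted p of 0.0573 in limma, just outside the threshold. It passed without EKO replicate 1 on NLD for 6 weeks (-0.45, adjusted p = 0.04125). That library is in neither DKO group and enters through the shared estimate of the spread. In DKO at 22 weeks Srebf2 was at 14.995, 18.6 and 15.4 FPKM on NLD and at 15.7, 13.2 and 11.2 FPKM on WD (-0.28, SE 0.15, adjusted p = 0.3107). In EKO at 6 weeks it was at 23.8, 16.6 and 18.5 FPKM on NLD and at 15.7, 13.1 and 17.7 FPKM on WD (-0.32, SE 0.15, adjusted p = 0.2117).

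Srebf2 also fell with time on WD in EKO, by 0.51 (SE 0.16, adjusted p = 0.03277 in limma). Its 22-week libraries at 9.74 and 11.3 FPKM were below all 3 of 6 weeks, as for 12.4% of all tested genes, and 4.45% were called lower. That call was lost without EKO replicate 1 or replicate 3 on WD for 6 weeks or for 22 weeks, with differences of -0.62 to -0.41 and adjusted p up to 0.2399. It shares the WD libraries of 22 weeks with the diet call. In DKO on WD the time difference of Srebf2 was -0.00 (SE 0.15), and the genotypes differed in it by -0.51 (SE 0.22, adjusted p = 0.1847).

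By comparison, the sign of the 8 differences was as follows. WD against NLD was negative for 8 of 8 genes in EKO at 22 weeks, with a median of -0.59 beside -0.06 over all tested genes, and 7 of 8 were negative after median-ratio rescaling of the libraries. Leaving out 1 library at a time gave 6 to 8 negative genes and a median of -0.84 to -0.14, the value nearest 0 being that without EKO replicate 1 on WD for 22 weeks, and with array weights (libraries weighted by their own spread) the median was -0.23. Apart from Srebf2 these 7 differences did not pass, and that of Fdft1 was -0.00 (SE 0.34). In DKO at 22 weeks the difference was negative for 8 of 8, with and without rescaling, with a median of -0.31 beside -0.09, and none of the 8 was called or reached an unadjusted p under 0.05 in limma, against 1.73% of genes called. Without DKO replicate 2 on WD for 22 weeks 6 of the 8 were negative and the median was -0.10, and the other fits with 1 library left out went down to -0.54. In DKO at 6 weeks 5 of 8 were positive (median 0.32), none was called, Hmgcs1 and Srebf2 had an unadjusted p under 0.05 in opposite directions, and every WD library was above every NLD library for Fdps and Insig1, as for 9.44% of all tested genes, against 5.17% called. In EKO at 6 weeks 6 of 8 were negative (median -0.32), none was called and 2 had an unadjusted p under 0.05, against 0.336% called. That direction turned without EKO replicate 1 on NLD for 6 weeks, with 3 negative and a median of 0.09, and the other fits with 1 library left out went down to -0.55. With array weights the median was -0.07 and 1 member was called, with no share of all tested genes given here for that setting.

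EKO against DKO gave no call on NLD for 6 weeks, where 7 of 8 differences were positive, none had an unadjusted p under 0.05 and 0.141% of genes were called. Without EKO replicate 1 on NLD for 6 weeks 7 of 8 were negative and the median of 0.18 became -0.22. With array weights 3 were positive and with the replicate block 5. On WD for 6 weeks 7 of 8 were negative (median -0.31), again with none called or under an unadjusted p of 0.05 in limma, against 0.148% called, and the median ran from -0.66 to -0.10 when 1 library was left out, the ends being without EKO replicate 2 and replicate 1 of that group. On NLD for 22 weeks Fdft1 and Fdps had an unadjusted p under 0.05 and none of the 8 passed. On WD for 22 weeks 6 of 8 were negative with a median of -0.18, beside 0.10 over all tested genes, and Fdft1 was the member called. Without EKO replicate 1 on WD for 22 weeks 2 were negative and the median was 0.18, without DKO replicate 1 it was 0.01, and without DKO replicate 2 it was -0.36. With array weights 4 were negative (median -0.02). With time in DKO, none was called or had an unadjusted p under 0.05 in limma: on NLD 6 of 8 were positive (median 0.25, 0.0547% of genes called), and on WD 8 of 8 were negative (median -0.46, 0.219% called), with 4 negative and a median of -0.09 without DKO replicate 2 on WD for 22 weeks. In EKO on NLD 5 of 8 were positive with a median of 0.24, 4 of 8 with a median of 0.10 after rescaling, which moves the median of all tested genes from 0.12 to -0.00. With array weights all 8 were positive with a median of 0.54, and leaving out 1 library gave 0.02 (without EKO replicate 3 on NLD for 6 weeks) to 0.65 (without replicate 1 of that group). In EKO on WD 6 of 8 were negative over time with a median of -0.30. Without EKO replicate 1 on WD for 22 weeks 2 were negative and the median was 0.05, and with array weights 4 were negative with a median of 0.00.

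In the tests of differences between comparisons, diet by genotype called none of the 8 at 6 weeks (0.0313% of genes called) or at 22 weeks (4.39%), and none had an unadjusted p under 0.05 in limma. Diet by time called none in EKO, where 21.6% of genes were called and Insig1 had an unadjusted p under 0.05, and none in DKO, where 0.0391% were called and Hmgcs1 had one. In DKO 7 of the 8 diet by time differences were negative, with a median of -0.66. Rescaling changed the balance of calls over all genes in several of these comparisons, without changing a call on a member. The counts of higher and lower genes went from 3261 and 1435 to 2143 and 2269 for 22 against 6 weeks in EKO on NLD, and from 1890 and 570 to 1631 and 811 on WD. For WD against NLD they went from 1325 and 1174 to 1562 and 842 in EKO at 22 weeks, from 200 and 461 to 238 and 193 in DKO at 6 weeks, and from 107 and 115 to 153 and 55 in DKO at 22 weeks. For EKO against DKO at 22 weeks they went from 821 and 185 to 549 and 235 on NLD and from 2376 and 375 to 1674 and 554 on WD, and for diet by time in EKO from 1207 and 1553 to 1539 and 1278.

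For Hmgcs1, Idi1, Fdps, Insig1, Sqle and Cyp51 the differences between libraries of one group took up more of the variance than the differences between groups. The mean of the 8 standardised levels was highest in EKO replicate 1 on NLD for 6 weeks, at 1.56, where 5 members were among the top 3 of the 24 full libraries and Idi1, Sqle, Cyp51 and Srebf2 were at their highest. Its group mates stood at -0.44 and -0.80. The lowest were DKO replicate 2 on WD for 22 weeks, at -1.53, and EKO replicate 1 on WD for 22 weeks, at -1.45, each with 6 members among the bottom 3. Group mates of these stood at 0.49 and -0.35, and at 0.24.

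**Figure D5:**
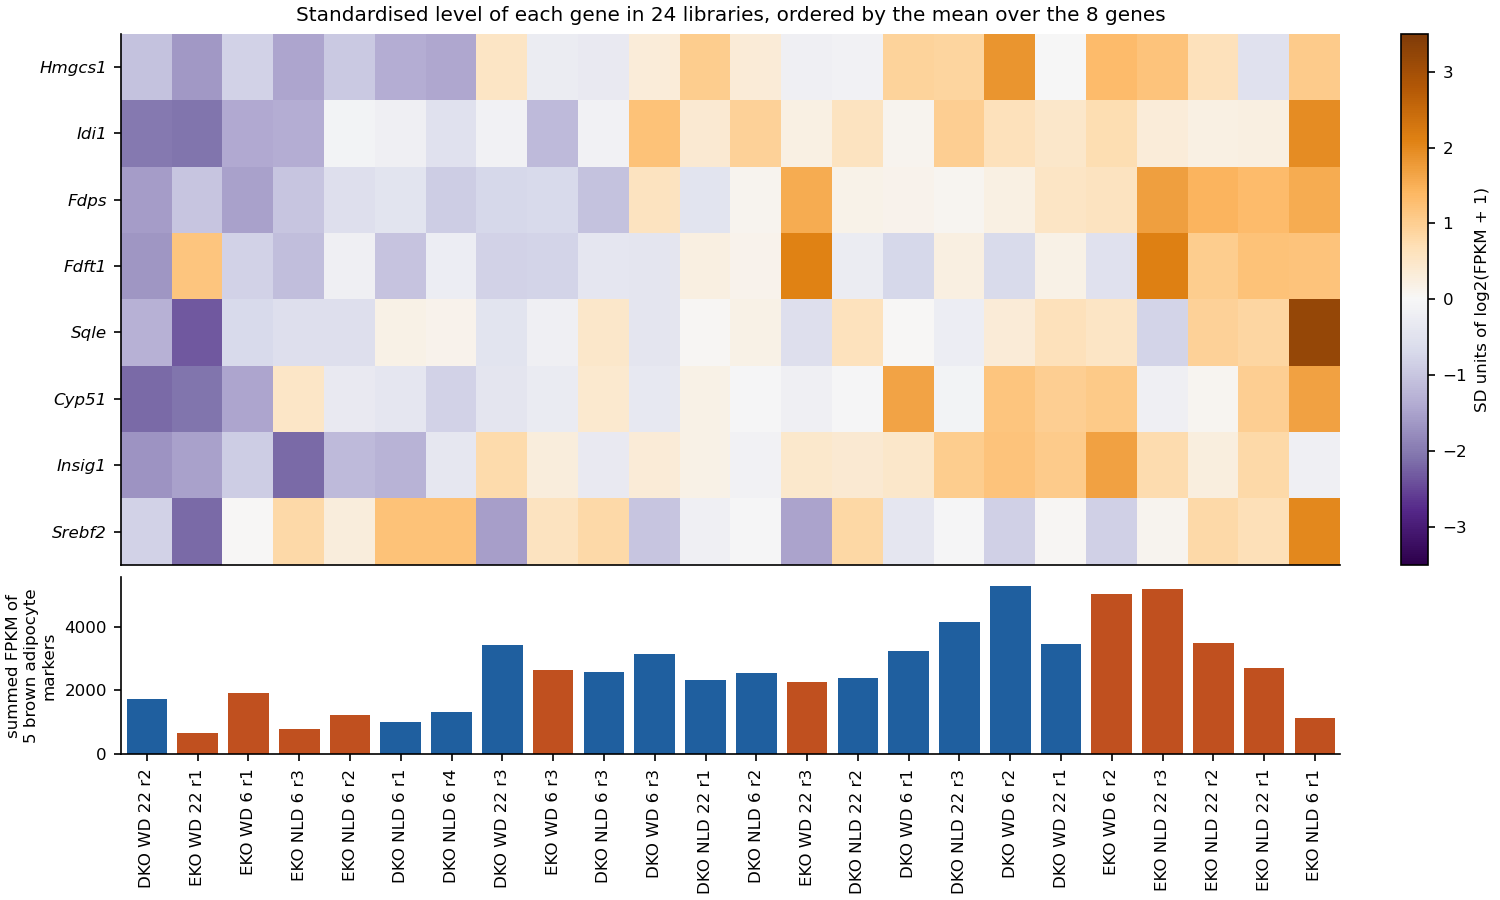
Top, standardised level (colour, SD units) of the 8 genes (vertical axis) in the 24 full libraries (horizontal axis), ordered by their mean from -1.53 to 1.56; bottom, summed FPKM of 5 brown adipocyte markers in the same libraries. The synthesis genes change together from left to right, Fdft1 and Srebf2 less so, and the library with the highest mean has a brown adipocyte sum of 1141 FPKM.

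Of the 28 pairs of members, 15 correlated over the 24 full libraries with an adjusted permutation p under 0.05 for Pearson's r. The strongest by Pearson's r was Hmgcs1 with Insig1 (r = 0.79, adjusted p = 0.000187; rho = 0.73, adjusted p = 0.001213), at r = 0.75 without the 2 libraries farthest from the median of Hmgcs1. Idi1 with Fdps had r = 0.71 (adjusted p = 0.00056; rho = 0.73, adjusted p = 0.00098), r = 0.65 without the 2 farthest, and r = 0.94 within groups. Among the 15 pairs that involve neither Fdft1 nor Srebf2, r was between 0.38 and 0.79, with 13 under the threshold, and between 0.54 and 0.94 within groups. The 7 pairs of Fdft1 had r between -0.03 and 0.75 across libraries and between 0.17 and 0.82 within groups. The 7 pairs of Srebf2 had r between -0.16 and 0.68 and between -0.17 and 0.58 within groups, and 1 of them passed, with Sqle (r = 0.68, adjusted p = 0.00072; rho = 0.52, adjusted p = 0.021452; r = 0.40 without the 2 farthest). All 24 libraries share the FPKM scaling.

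The mean standardised level of the 8 genes was set against the summed levels of 9 lists of cell type markers over the same 24 libraries. It was lower where fibroblast markers were higher (r = -0.63, adjusted permutation p = 0.00774; rho = -0.76, adjusted p = 0.00027; r = -0.65 without the 2 farthest libraries and -0.79 within groups). With brown adipocyte markers r was 0.54 (adjusted p = 0.01908; rho = 0.65, adjusted p = 0.00405), 0.34 without the 2 farthest, and 0.68 within groups. Endothelial markers (r = -0.56, adjusted p = 0.01908; rho = -0.35, adjusted p = 0.16369) and skeletal muscle markers (r = 0.50, adjusted p = 0.031657; rho = 0.40, adjusted p = 0.126831) rested in part on the 2 libraries farthest in their own sum. Without these, r was -0.27 and 0.35, and within groups it was -0.56 and 0.50. White adipocyte markers had r = 0.46 (adjusted p = 0.048312; rho = 0.49, adjusted p = 0.051779; 0.42 without the 2 farthest; 0.23 within groups). Smooth muscle (r = -0.11), macrophage (r = -0.27), Schwann cell (r = 0.27) and erythroid markers (r = -0.17) did not pass over all libraries. Within groups their r was -0.63, -0.41, 0.44 and -0.36 in that order, with no test. Of the members, Fdft1 followed white adipocyte markers (r = 0.57, adjusted p = 0.016587; rho = 0.57, adjusted p = 0.023146; r = 0.50 without the 2 farthest; r = 0.24 within groups). The part of these cell types in the members' levels was not tested.

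In the diet call of Srebf2 in EKO at 22 weeks, all 6 macrophage markers were called higher on WD, 3 of 5 white and 2 of 5 brown adipocyte markers were called lower, and 2 of 5 fibroblast markers were called higher. Of all tested genes 10.4% were called higher and 9.17% lower in that comparison. The white adipocyte sum was 1153 and 1696 FPKM on WD against 2956 to 5540 FPKM on NLD, and the brown adipocyte sum 677 and 2281 FPKM against 2695 to 5194 FPKM. In the time call of Srebf2 on WD, 6 of 6 macrophage markers were called higher and 2 of 5 smooth muscle markers lower. The shares of all tested genes were 14.8% higher and 4.45% lower. In the time call of Fdft1 in EKO on NLD, 3 of 5 white and 3 of 5 brown adipocyte markers and 3 of 6 macrophage markers were called higher and 5 of 5 smooth muscle markers lower. The share of all tested genes called higher was 25.5%. The smooth muscle sum there was 8514 to 10039 FPKM at 6 weeks and 3730 to 5318 FPKM at 22 weeks. None of these markers was at 0 in a full library of those groups.

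The 8 genes outside the members whose profile was most like the members' mean profile were taken over the 24 full libraries from the 8642 genes that averaged 5 FPKM or more. They were Diablo (r = 0.84), Nsdhl (r = 0.84), Lss (r = 0.83), Tmem179 (r = 0.82), Atp9a (r = 0.82), Thrsp (r = 0.82), Abcb10 (r = 0.81) and Pnpla3 (r = 0.81). Nsdhl and Lss encode later enzymes of cholesterol synthesis, a sterol dehydrogenase and lanosterol synthase, and ranked 2 and 3. Further synthesis enzymes that followed include Acat2 at rank 9, Dhcr7 at 17, Pmvk at 85, Tm7sf2 at 126, Sc5d at 145, Mvk at 200 and Sc4mol at 252. Ebp stood at rank 2576 (r = 0.30), and Lbr, a nuclear envelope protein with sterol reductase activity, had r = -0.34.

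Of the 15 synthesis enzymes outside the members, all tested, few were called. In EKO against DKO on NLD for 22 weeks 2 were higher, Sc5d by 1.19 (SE 0.27, adjusted p = 0.007496 in limma) and Ebp by 0.50 (SE 0.12, adjusted p = 0.0138), with none lower and a median of 0.20 over the 15. Of all tested genes 7.86% were called in either direction in that comparison. Sc5d, a sterol desaturase, was at 18.1 to 28.2 FPKM in EKO and 8.05 to 11.2 FPKM in DKO there. With 22 against 6 weeks in EKO on NLD, where 25.5% of all tested genes were called higher, 3 of the 15 were higher and none lower. These were Sc5d by 0.85, Acat2 by 1.01 and Ebp by 0.32. For WD against NLD in EKO at 22 weeks, where 9.17% of all tested genes were called lower, 2 of the 15 were lower and none higher, with a median of -0.50. These were Tm7sf2, a sterol reductase, by -0.76 (SE 0.20, adjusted p = 0.01251), and Acat2, which makes the first intermediate, by -1.32 (SE 0.42, adjusted p = 0.03372). Acat2 was at 25.9 and 46.4 FPKM on WD and at 68.3 to 110 FPKM on NLD. None of the 15 was called in the 9 other comparisons.

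Among the 5 genes of SREBP processing, Mbtps2, the site-2 protease, was at 3.76 and 3.84 FPKM in EKO on WD for 22 weeks and at 1.87 to 2.94 FPKM in the 22 other full libraries. It was called higher against DKO (0.58, SE 0.10, adjusted p = 0.0002713 in limma), against NLD (0.52, adjusted p = 0.001202) and against 6 weeks (0.59, adjusted p = 0.0001813), comparisons that share those 2 libraries. Of all tested genes 18.6%, 10.4% and 14.8% were called higher in these, in that order. Insig2, the second INSIG gene, and Mbtps1, the site-1 protease, were lower on WD in DKO at 6 weeks, by -0.35 (adjusted p = 0.02158) and -0.39 (adjusted p = 0.04538). There 5.17% of all tested genes were called in either direction. Between 6 and 22 weeks in EKO on NLD, where 25.5% of all tested genes were called higher, Srebf1 was higher by 1.23 and Scap by 0.45. Insig2 was lower there by -0.38. Of 6 further SREBP2 targets of sterol uptake and transport 4 were tested. Against DKO at 22 weeks Tmem97 was higher on NLD (0.51, adjusted p = 0.01813) and on WD (0.67, adjusted p = 0.0009001) and with time in EKO on WD (0.48, adjusted p = 0.01306), and Lpin1, a phosphatidate phosphatase, with time in EKO on NLD (1.299, adjusted p = 0.01826). Of all tested genes 18.6% were called higher against DKO on WD at 22 weeks. With time in EKO the share was 14.8% on WD and 25.5% on NLD. Against DKO on NLD at 22 weeks 7.86% were called in either direction. Stard4, a sterol transfer protein, was called in none of the 12 comparisons.

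In the non-sterol isoprenoid branch, 5 genes, Nus1 was higher on WD against NLD in EKO at 22 weeks (0.37) and with time in EKO on WD (0.35). Of all tested genes 10.4% and 14.8% were called higher there. With time in EKO on NLD Pdss1 (0.98) and Pdss2 (0.75) were higher and Ggps1 (-0.45) lower. In that comparison 25.5% of all tested genes were called higher, and the count called lower is given above. Of the sterol efflux and LXR targets, 8 tested of 10, 4 were called higher and none lower in EKO against DKO on WD for 22 weeks (18.6% of all tested genes were) and in WD against NLD in EKO at 22 weeks (10.4%). Both comparisons share the 2 full WD libraries, and in both the genes were Abcg1 and Abca1, which export sterols, Soat1, which esterifies them, and Ch25h, a sterol hydroxylase. Abcg1 was higher by 2.33 (SE 0.34, adjusted p = 9.946e-05 in limma) in the diet comparison in which Srebf2 fell. In DKO Abcg1 was higher on WD by 1.92 (adjusted p = 0.002213) at 6 weeks, with 3 of the 8 called higher beside 1.56% of all tested genes, and by 1.23 (adjusted p = 0.04653) at 22 weeks, with 1 called beside 0.836%. With time in EKO 6 of the 8 were called higher on NLD, where 25.5% of all tested genes were, and 5 on WD, where 14.8% were.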

How the data were processed

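Whole-aorta RNA of 25 libraries in 8 groups had been sequenced as 50 nt unpaired reads. The authors estimated FPKM with Cufflinks on reads aligned to mm10. The submitters' processing notes list TopHat 1.3.2, Cuffdiff, Bowtie 0.12.8 and SAMtools 0.1.19. The version of Cufflinks, its gene models, the strand of the reads and the flowcell of each library are not given in the sources used here, so flowcell and group cannot be told apart. The deposited FPKM are not whole multiples of a read, so depth is unknown and count tests were not run.

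On the scale log2(FPKM + 1), the 12797 of 23284 genes that averaged 1 FPKM or more were tested in limma 3.58.1 (R 4.3.3), with 1 mean per group and moderated variances (trend and robust). The zeros of the partial library were missing values for 8775 tested genes. All other columns of the table were used. Benjamini-Hochberg adjusted p under 0.05 within a comparison counted as called. Correlations used 100000 permutations of the full libraries, made without regard to group (SciPy 1.17.1). Their p-values therefore do not separate a relation between libraries from shared differences between groups. No r within groups was tested. The genes, lists and tests were chosen with earlier results of these data known. The text names the 8 members, up to 4 genes of another list with the smallest p in a comparison, marker genes and the 8 genes of most similar profile. Ctsb, Akap9, Ppia and genes of the lists beyond that rule were named after their values were seen. Some genes of the lists are counted but not reported here by name. Positions came from GENCODE M21, which was also used to count shared 50 nt stretches, and promoters from RefSeq.

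Alternatives were pseudocounts of 0.1 and 5, no filter, a mean of at least 5 FPKM, median-ratio rescaling, zeros kept as deposited, array weights, a replicate block and leaving out each library. For uncalled differences of Fdps, Fdft1, Insig1 and Srebf2, the fits quoted without 1 library are those that brought the adjusted p under 0.05. In data simulated for WD against NLD in DKO at 6 weeks, the fit over 12797 genes recovered 71% of genes changed 2-fold and 96% of those changed 4-fold, with 9 false among 176 calls. Only genes of higher level were changed, and that comparison holds the group of 4 libraries. The residual SD of the members other than Srebf2 was 0.38 to 0.65, against a median of 0.21, so the recovery for those members is not known.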

Additional observations from a re-analysis of the deposited data

Results flagged for a closer look

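Sqle in DKO on NLD for 6 weeks had 1 library at 7.20 FPKM, apart from the 3 others at 6.27 to 6.43 FPKM. The gap to the nearest was large for the range of the group, in 1 of the 8 sets of 4 libraries examined, and chance alone gives such a gap in about 1 set in 20.

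The change of Fdft1 from 6 to 22 weeks on WD differed between the genotypes by 1.66 on the log2 scale (SE 0.48, adjusted p = 0.03489 in limma, by a test of the difference itself). The call was lost with the replicate block (adjusted p = 0.0577), with the zeros of the partial library kept (adjusted p = 0.1665) and in 9 of 25 fits that leave out 1 library, and kept in the 16 others. All 3 EKO libraries of 22 weeks were above all 3 of 6 weeks, whereas the DKO groups overlap.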

How the results depend on the processing

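None of the 6 calls on members changed direction under any alternative run, and the other pseudocounts, no filter and rescaling left each on its side of the threshold. With a mean of at least 5 FPKM required, 22 against 6 weeks in EKO on NLD called 2 members in place of 1. With the zeros kept as deposited, the calls were 0 for WD against NLD in EKO at 22 weeks, 0 and 1 for 22 against 6 weeks in EKO on NLD and WD, and 0 for time by genotype on WD. That alternative sets 2 full libraries beside zeros for 4 of the 8 genes. With array weights, 2 members were called in EKO against DKO on NLD and 2 on WD at 22 weeks, 1 in WD against NLD in EKO at 6 weeks, 2 in DKO at 6 weeks and 1 in DKO at 22 weeks, 3 in 22 against 6 weeks in EKO on NLD and 3 on WD, 2 in time by genotype on WD and 1 in diet by time in EKO. The shares of all tested genes called with array weights are not given here, so these counts cannot be set against them. The cause was not tested. Libraries of the same replicate number showed no pairing: in 84 such pairs the deviations from group means over 4022 genes had a median r of 0.0150 (-0.510 to 0.490), and 9 of 25 libraries correlated best with their own number. With the replicate block, time by genotype on WD called 0 members (Fdft1 1.66, adjusted p = 0.0577 in limma), and the other calls held.

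Leaving out 1 library at a time gave 0 to 3 calls for 22 against 6 weeks in EKO on NLD, 1 to 2 on WD, 1 in every fit for EKO against DKO on WD for 22 weeks, and 0 to 1 for EKO against DKO on NLD for 22 weeks, WD against NLD in EKO at 22 weeks and in DKO at 6 weeks, time by genotype on WD and diet by time in EKO. The Fdft1 call of EKO against DKO on WD for 22 weeks held in all 25 fits (1.27 to 1.91, adjusted p 0.00046 to 0.01972), as did that of 22 against 6 weeks in EKO on WD (1.31 to 1.67, adjusted p up to 0.02259). The time by genotype call held in 16 of 25 (1.34 to 1.99, adjusted p up to 0.11), and was lost without any single library of EKO or DKO on WD for 6 weeks, DKO replicate 2 or 3 on WD for 22 weeks, or EKO replicate 3 on WD for 22 weeks. Over all alternatives, the 6 calls were kept 176 times and lost 22 times. The shares of all tested genes called in fits that leave out 1 library are not given here. The counts of calls in those fits cannot be set against them. Depth limits could not be stated from FPKM.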
